A study of Mus musculus with 12 samples.

Results

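The genes described here encode secreted ligands of the transforming growth factor beta (TGF-beta) family. They are Tgfb1, Tgfb2 and Tgfb3, the bone morphogenetic protein (BMP) genes Bmp2, Bmp4, Bmp6 and Bmp10, the activin subunit genes Inhba and Inhbb, and the myostatin gene Mstn. They were found by exact symbol in both deposited gene tables, 10 of 10 among 24340 rows. RNA-seq was done on mouse cardiac samples labelled wild type (WT) or knockout (KO) for the epidermal growth factor receptor (EGFR), a receptor tyrosine kinase, at 7 and 9 weeks of age. The groups used were 7wkWT, 7wkKO and 9wkKO, with 3 samples behind each. The 9wkWT samples were not analysed here. Strain, deleted part of Egfr and the promoter or Cre line behind the cardiac deletion were not stated in the sources at hand, and the labels do not say whether replicates were different animals, so p-values measure only the spread between these samples, which may be technical.

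TGF-beta family ligands act as dimers that bring together type I and type II receptor kinases, which then phosphorylate SMAD transcription factors. TGF-beta proteins are secreted in a latent form bound to the matrix and must be released before they can signal, and secreted antagonists hold back BMPs and activins. In the heart TGF-beta ligands are known for driving fibroblast activation and matrix deposition, BMP ligands for guiding chamber and valve formation, and myostatin for restraining muscle growth.

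The authors' deposited tables held 1 FPKM value per gene and group (fragments scaled to transcript length and library size). Single samples had no value of their own, so spread and depth are unknown and levels carry no SD. Calls rest on a deposited Cuffdiff q under 0.05. Each log2 fold is the log2 ratio of both deposited group values, and its 95% interval is the one implied by the deposited test statistic. The later comparison listed the 7wkKO samples again, with ligand values 0.691% to 0.820% higher than in the first. Cardiomyocyte markers were abundant, and the FPKM of 6 such genes summed to 68223 (7wkWT), 60535 (7wkKO) and 61058 (9wkKO). Egfr itself was listed at 1.20, 1.64 and 1.59 in these groups, not lower in the samples labelled knockout, so all directions refer to the labels. In bulk samples, fewer cells of a type and less RNA per cell cannot be told apart.

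Tgfb1, Bmp6 and Tgfb3 were the most abundant ligand transcripts in every group. Tgfb1, whose product is the ligand best known from fibrosis, had an FPKM of 25.9 (7wkWT), 22.2 (7wkKO) and 28.0 (9wkKO). Bmp6, a BMP gene known for its part in iron regulation, followed at 18.4, 18.3 and 23.0. Tgfb3 was listed at 11.9, 12.7 and 9.99, and Bmp4, a BMP needed for early mesoderm and heart formation, at 8.67, 8.16 and 6.59. These genes kept ranks 1 to 4 in the 3 groups. Tgfb2, the isoform known for its role in heart valve development, held rank 5 with 3.06, 4.58 and 4.64.

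The other ligands were scarce. Inhba, which encodes the subunit of activin A, was listed at 1.20, 1.76 and 1.60. Bmp2, a BMP of the developing atrioventricular canal, was at 1.08, 1.28 and 1.11. Inhbb, which encodes the subunit of activin B, was at 0.945, 1.16 and 1.28 and passed Bmp2 in 9wkKO. The spread between samples is unknown, so which neighbours in this order differ could not be tested. Mstn had levels of 0.224 (7wkWT), 0.210 (7wkKO) and 0.0422 (9wkKO) and was left untested by the authors in both comparisons. Bmp10, a cardiac BMP gene known for trabecular growth in the embryo and for atrial expression in the adult, was listed at 0 in all 3 groups. A listed 0 was common, with 6750 of 24336 uniquely named genes at 0 in all 3 groups, and none of 15 widely expressed housekeeping genes was at 0 in 7wkWT. Such genes cannot tell absence of Bmp10 transcript from a gap in its measurement. Atrial transcripts were present, and 12 atrial markers summed to an FPKM of 797 (7wkWT), 3068 (7wkKO) and 885 (9wkKO).

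**Figure D1:**
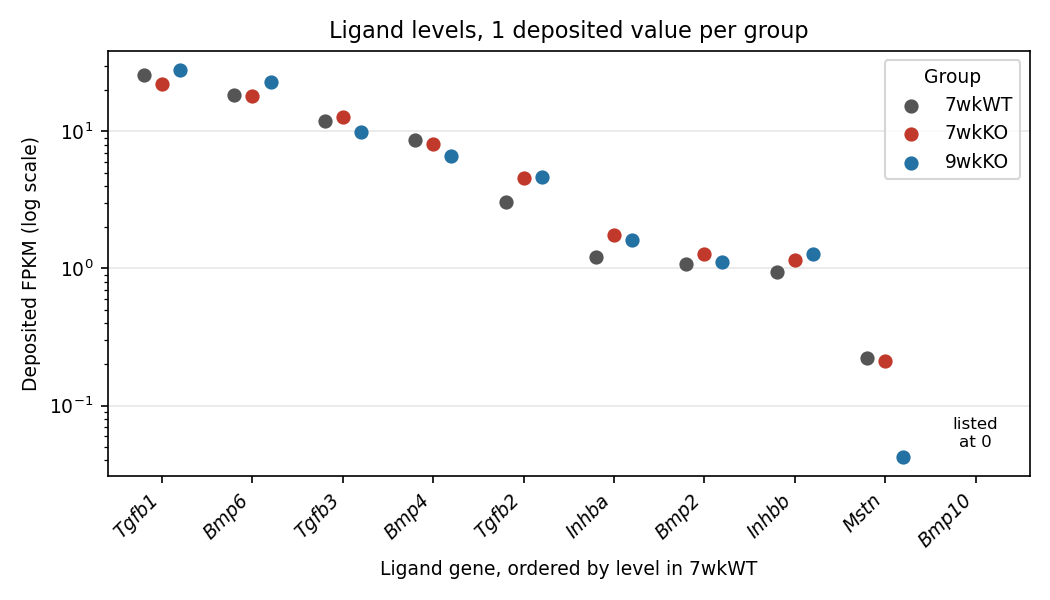
Deposited FPKM (log scale) of the 10 ligand genes, with 1 point per group (grey 7wkWT, red 7wkKO, blue 9wkKO) and genes ordered by their level in 7wkWT. Levels run from 28.0 for Tgfb1 in 9wkKO to 0.0422 for Mstn in 9wkKO, Bmp10 is listed at 0, and the 2 knockout points of Tgfb2 lie above its wild type point.

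Knockout and wild type were compared at 7 weeks. Tgfb2 was the ligand called, and it was higher in 7wkKO. Of 8 tested ligands 1 was called higher, 0 were called lower and 7 were not called, while 2.37% of all 11987 tested genes were called (1.67% higher and 0.701% lower). At an unadjusted deposited p under 0.05 the count was also 1, and 11.3% of all tested genes passed that level. The median log2 fold of the tested ligands was 0.17, with 5 above 0 and 3 below, against a median of -0.00061 over all tested genes, of which 49.9% were above 0.

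Tgfb2 (mm10, chromosome 1, 186623186 to 186705992) rose from FPKM 3.06 in 7wkWT to 4.58 in 7wkKO, a 1.50-fold difference. In the authors' deposited table its log2 fold of 0.58 had a Cuffdiff p of 0.00105 and a q of 0.0458. That q lay close to the threshold, since the largest q of a called gene in the authors' deposited table was 0.0485. The isoform table, where Tgfb2 has 1 row with the same values, gave a q of 0.0650 for it in the authors' deposited table, and this ended the call. Among all isoforms 1.42% of tested rows were called. A normal p taken from the deposited statistic alone gave an adjusted p of 1, and the interval implied by that statistic ran from -0.0015 to 1.16 on the log2 scale.

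Some atrial muscle markers were higher at 7 weeks, as Tgfb2 was. Of 12 such markers 7 were called higher in 7wkKO in the authors' deposited table and 0 lower, against 1.67% and 0.701% of all tested genes. The list was chosen with earlier results of these data known, so this count is a description. A normal p from the deposited statistic alone left 1 call. At the median of 11861 genes that statistic was smaller by a factor of 1.74 than the deposited p implied. This rule is thus stricter for genes in general, and how many of all tested genes it called was not counted. Their summed FPKM was 797 in 7wkWT, 3068 in 7wkKO and 885 in 9wkKO, and without Nppa it was 381, 754 and 118. None of the 12 was listed at 0. From 7 to 9 weeks 9 of the 12 were called lower, against 2.76% of all tested genes, while Tgfb2 stood at 4.61 and 4.64. The part of these markers in the Tgfb2 result was not tested.

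The 250 bases before the annotated start of Tgfb2 are shown because it was the only ligand called, together with those of Cyr61 (RefSeq symbol Ccn1), a TGF-beta response gene that also rose at 7 weeks and was chosen for this after its values were seen. Both are RefSeq sequences of GRCm38.p6, read 5′ to 3′ on the minus strand, at chr1:186705990-186706239 for Tgfb2 and chr3:145649986-145650235 for Cyr61. Capitals in Tgfb2 mark a CCAAT box, an E-box (CACGTG) and a TATA box (TATAAA), in that order. In Cyr61 they mark a TEAD factor motif (GGAATG, here as its reverse complement CATTCC) and a TATA box.
Tgfb2: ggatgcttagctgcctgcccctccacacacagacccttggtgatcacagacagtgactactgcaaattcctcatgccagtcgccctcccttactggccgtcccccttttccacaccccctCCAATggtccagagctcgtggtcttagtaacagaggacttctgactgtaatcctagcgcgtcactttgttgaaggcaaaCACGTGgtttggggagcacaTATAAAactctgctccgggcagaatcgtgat
Cyr61: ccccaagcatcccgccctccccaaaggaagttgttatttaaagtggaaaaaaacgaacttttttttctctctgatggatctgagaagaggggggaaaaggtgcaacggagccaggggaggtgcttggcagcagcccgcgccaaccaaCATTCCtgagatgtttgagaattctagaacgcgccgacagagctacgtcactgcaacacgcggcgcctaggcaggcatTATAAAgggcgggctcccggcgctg

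Windows of this kind were found for 8 of the 10 ligands, all but Tgfb3 and Bmp2. The search covered both strands of the 250 bases before each start, over 32851 windows of all genes. In Tgfb2 the TATA box began 31 bases before the start, the E-box 51 and the CCAAT box 130. The E-box was found in Tgfb2, Bmp4 and Bmp6 and in 6.02% of all windows. The TATA box was found in Tgfb2, Inhba and Mstn and in 12.4% of all windows, and CCAAT in Tgfb2, Bmp10 and Mstn and in 33.8%. An AP-1 motif (TGANTCA, 6.75% of all windows) was found in Mstn alone among the ligands. The cyclic AMP response element (TGACGTCA, 1.55%), the TEAD motif (12.6%) and the CArG box (1.47%) were found in no ligand window. None of these motifs shares its letters with another at the positions marked. A match describes letters in the window and does not show binding.

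No other ligand passed the threshold at 7 weeks. Inhba, with 1.20 in 7wkWT and 1.76 in 7wkKO, had a log2 fold of 0.55, nearly as large as that of Tgfb2, with an interval from -0.56 to 1.65 (q = 0.567 in the authors' deposited table). Inhbb had a log2 fold of 0.30 (q = 0.760) and Bmp2 one of 0.24 (q = 0.856) in the authors' deposited table. These 3 scarce genes had the widest intervals of the tested ligands. Tgfb1 had a log2 fold of -0.22 with an interval from -0.72 to 0.29 (q = 0.661 in the authors' deposited table). Tgfb3, Bmp4 and Bmp6 had log2 folds of 0.10, -0.09 and -0.01 in the authors' deposited table, with q of 0.932, 0.956 and 0.993. For Bmp6 the interval ran from -0.53 to 0.51, so it did not exclude a change of up to that size in either direction. It rests on the deposited statistic, which for Bmp6 was smaller than its deposited p implied. An interval taken from that p would be narrower.

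**Figure D2:**
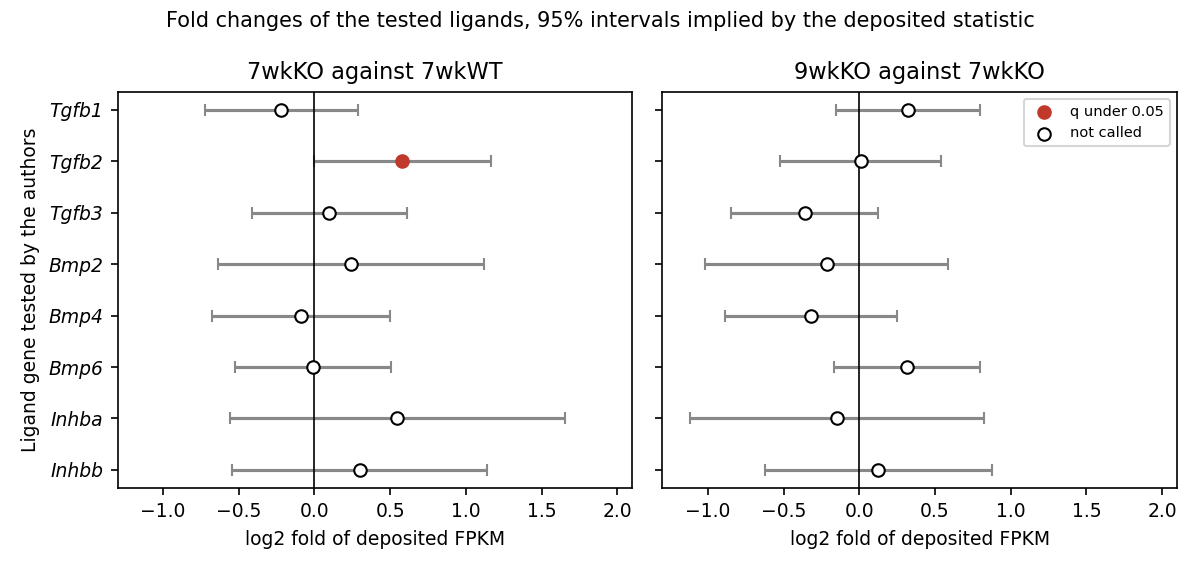
Log2 fold of the 8 tested ligands for 7wkKO against 7wkWT (left) and 9wkKO against 7wkKO (right), with bars for the 95% interval implied by the deposited statistic. Tgfb2 at 7 weeks is the filled point (q under 0.05), and its bar reaches just below 0, from -0.0015 to 1.16.

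Knockout samples of 7 and 9 weeks were compared next, where age cannot be told apart from whatever else differed between these groups. No ligand passed the threshold, with 0 of 8 tested called by Cuffdiff in the authors' deposited table, while 4.66% of all 12046 tested genes were. At an unadjusted deposited p under 0.05 there were 3 ligands, 2 higher and 1 lower, against 12.9% of all tested genes. The isoform table (2.93% of tested rows called) and the other call rules tried also gave 0. The median log2 fold of the tested ligands was -0.07, with 4 above 0 and 4 below, against 0.01 over all tested genes.

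The 3 ligands with an unadjusted p under 0.05 were Tgfb3, Tgfb1 and Bmp6. Tgfb3 had 12.8 (7wkKO) and 9.99 (9wkKO) in the later table, a log2 fold of -0.36 with an interval from -0.84 to 0.12. Its Cuffdiff p was 0.0121 and its q 0.162 in the authors' deposited table. Tgfb1 was at 22.4 and 28.0, a log2 fold of 0.32 with an interval from -0.15 to 0.80. Its Cuffdiff p in the authors' deposited table was 0.0211 and its q 0.235. Bmp6 was at 18.4 and 23.0 and had a log2 fold of 0.32 as well, with a p of 0.0225 and a q of 0.244 in the authors' deposited table. None of the 3 passed the threshold, and the intervals of all 3 included 0. These intervals rest on the deposited statistic, which for each was smaller than its deposited p implied. They can therefore include 0 beside an unadjusted p under 0.05.

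Endothelial and fibrous tissue markers differed between these groups as well. Of 6 endothelial markers 3 were called higher in 9wkKO in the authors' deposited table, Cldn5, Kdr and Emcn, and 0 lower, against 1.89% and 2.76% of all tested genes. A normal p from the deposited statistic alone left 1 of these calls. Their summed FPKM was 367 (7wkKO, as listed later) and 509 (9wkKO), against 461 in 7wkWT. Of 4 tested valve and fibrous tissue markers 3 were called lower (2.76% of all tested genes were), Angptl7, Fmod and Comp, and the summed FPKM of that list was 28.1 (7wkWT), 44.5 (7wkKO) and 8.56 (9wkKO). Both lists were chosen with earlier results of these data known, so these counts are a description. None of the markers on either list was listed at 0. Their part in the values of Tgfb1, Bmp6 and Tgfb3 was not tested.

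Tgfb2 stood at 4.61 in 7wkKO and 4.64 in 9wkKO, with a log2 fold of 0.01 and an interval from -0.52 to 0.54 (q = 0.997 in the authors' deposited table). Centring on the median of all tested genes turned the sign of that value. Bmp4, at 8.22 and 6.59, had a log2 fold of -0.32 (p = 0.0558 and q = 0.409 in the authors' deposited table). Bmp2, Inhba and Inhbb had log2 folds of -0.22, -0.15 and 0.12, with q of 0.890, 0.968 and 0.959 in the authors' deposited table.

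**Figure D3:**
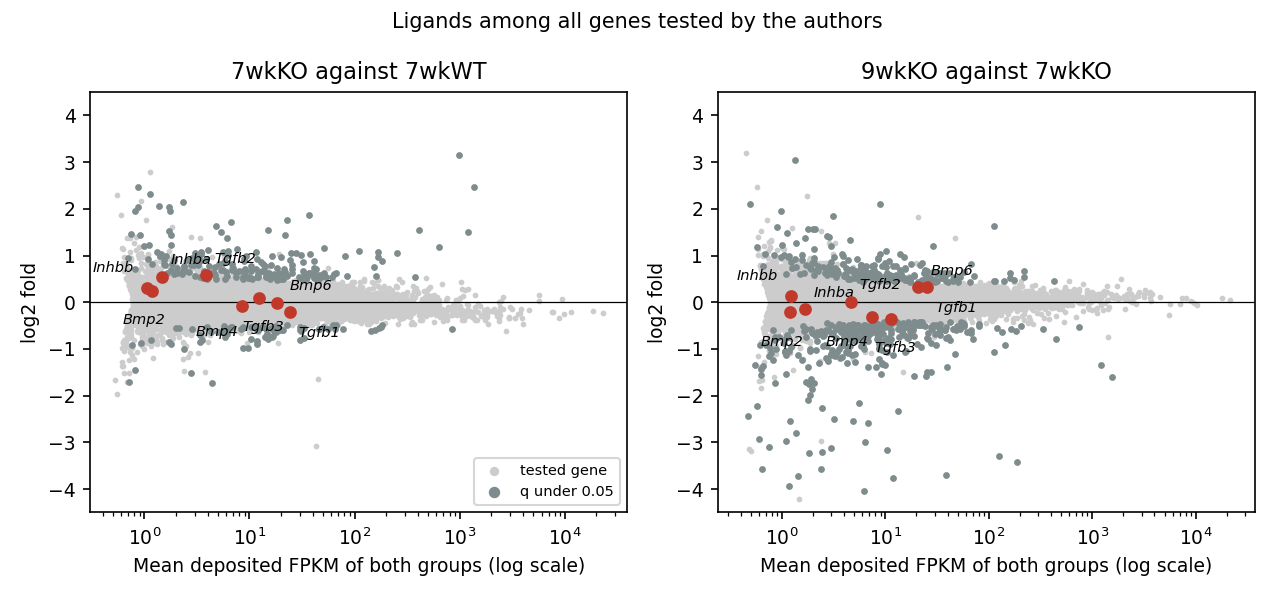
Log2 fold against mean deposited FPKM (log scale) for all genes tested by the authors (light grey), those with q under 0.05 (dark grey) and the 8 tested ligands (red, named), at 7 weeks (left) and from 7 to 9 weeks (right). The ligands lie between -0.36 and 0.58 on the log2 scale, and 4 tested genes on the left and 2 on the right lie beyond the axis limits of 4.5.

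To place 9wkKO against 7wkWT, both log2 folds of a gene were added. The tables behind them were normalized separately, and the sums have no deposited test. Tgfb2 stood 0.59 above 7wkWT on the log2 scale, with an interval from -0.20 to 1.38 when both errors were taken as independent. Its value was the largest of the 8, followed by Inhbb at 0.42, Inhba at 0.40 and Bmp6 at 0.31. Bmp4 at -0.41 and Tgfb3 at -0.26 were below 0, and the intervals of all 8 included 0. Both log2 folds use the same 7wkKO samples, so their errors are not independent. The 7wkKO error largely cancels in the sum, so these intervals are too wide. That they include 0 therefore does not show that a ligand was unchanged. The 9wkKO and 7wkWT groups differ in genotype label and in age at once, which cannot be told apart.

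The level of the 3 TGF-beta genes together was 40.8 FPKM (7wkWT), 39.5 (7wkKO) and 42.7 (9wkKO). Tgfb2 made up 7.50% of the sum in 7wkWT, 11.6% in 7wkKO and 10.9% in 9wkKO. The share of Tgfb1 was 63.4%, 56.2% and 65.7% in the same order, and that of Tgfb3 was 29.1%, 32.2% and 23.4%. Among the BMP genes Bmp6 made up 65.4% of the sum in 7wkWT, 66.0% in 7wkKO and 74.9% in 9wkKO, and Bmp4 made up 30.8%, 29.4% and 21.5%. These shares were not tested.

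**Figure D4:**
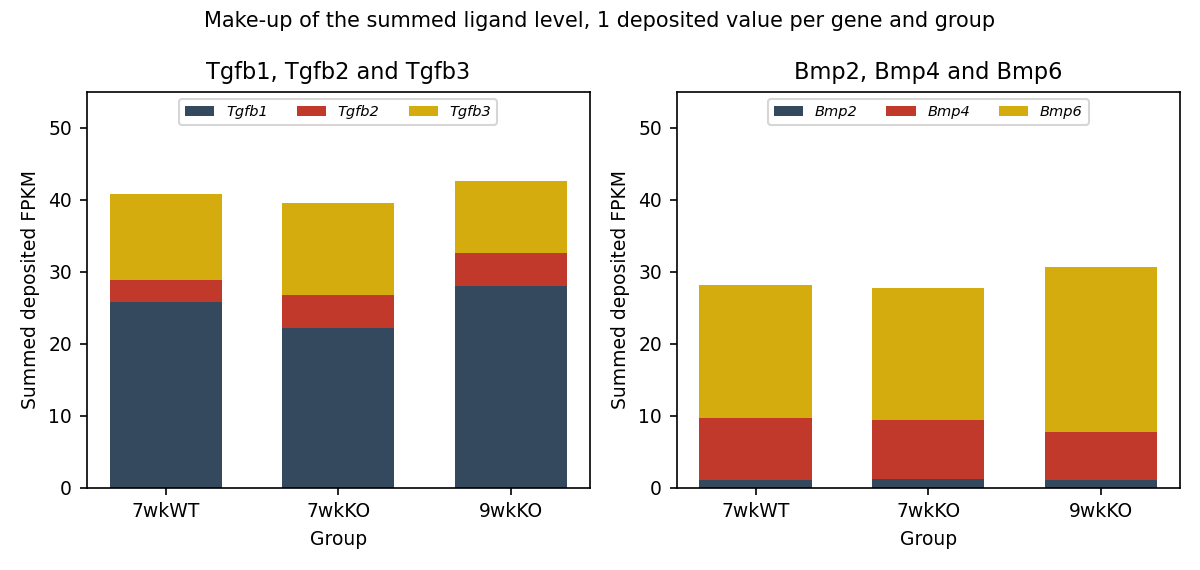
Summed deposited FPKM of the TGF-beta genes (left) and of the BMP genes above 0 (right) in each group, with 1 colour per gene. The TGF-beta sums are 40.8, 39.5 and 42.7, and Tgfb2 (red, left) takes 7.50% of the first and 11.6% of the second.

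The genes whose pattern over both comparisons lay nearest to that of Tgfb2 were Cobl, Slmap, Rcan1, Sorbs2 and Rtn4r. Nearness was the Euclidean distance over the 2 log2 folds among 11739 genes tested in both comparisons, and it ranged from 0.0095 for Cobl to 0.058 for Rtn4r. In the authors' deposited table Slmap went from 37.9 in 7wkWT to 56.5 in 7wkKO (q = 0.0124), Rcan1 from 31.8 to 48.5 and Sorbs2 from 50.0 to 76.4 (both q = 0.004995). Cobl (q = 0.158) and Rtn4r (q = 0.0865) were not called in the authors' deposited table. The choice of these genes fixed the size of both log2 folds, so their values are a description.

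Other ligand genes of the family were mostly scarce. Of 23 such genes 5 were tested at 7 weeks, and 1 of these was called higher and 0 lower, against 1.67% and 0.701% of all tested genes (median log2 fold 0.00076). It was Gdf15, which encodes a stress-induced member of the family, with 3.14 in 7wkWT and 10.3 in 7wkKO (q = 0.004995 in the authors' deposited table). With a normal p from the deposited statistic alone its adjusted p was 0.0560, which ended the call. From 7 to 9 weeks 1 of 6 tested genes was called lower and 0 higher, against 2.76% and 1.89% of all tested genes (median -0.20). This was Gdf10, a BMP-like ligand gene, from 3.73 to 2.35 with a q of 0.0300 in the authors' deposited table, and the call was lost at a q threshold of 0.01 and with the statistic alone. Inha, whose product pairs with the activin subunits to form inhibins, was at 2.71, 2.32 and 2.62 in the 3 groups.

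Receptor genes were measured without a call. By the deposited Cuffdiff q 0 of 14 tested receptors and co-receptors were called in either comparison, against 2.37% of all tested genes at 7 weeks and 4.66% later. An unadjusted p under 0.05 was listed for 2 in each, against 11.3% and 12.9% of all tested genes, and the median log2 folds were 0.05 and 0.09. The most abundant were Hfe2, which encodes the BMP co-receptor hemojuvelin, at 140, 139 and 135 in the 3 groups, and Eng, which encodes the endothelial co-receptor endoglin, at 137, 118 and 154. Their q values in the authors' deposited table were 0.994 and 0.700 at 7 weeks and 0.973 and 0.174 from 7 to 9 weeks.

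Genes for secreted antagonists and for SMAD proteins and their regulators likewise had no call, beside the same shares of all tested genes (2.37% and 4.66% called, 11.3% and 12.9% at an unadjusted p under 0.05). For the antagonists 0 of 8 tested genes were called by Cuffdiff in either comparison, 1 in each had an unadjusted p under 0.05, and median log2 folds were 0.11 and -0.14. Their most abundant members were Fstl1, which encodes a follistatin-like glycoprotein, at 63.5, 72.0 and 68.7, and Twsg1, which encodes a BMP-binding protein, at 26.9, 33.0 and 32.0. Grem1 and Cer1 were listed at 0 in all 3 groups. Among SMAD genes and regulators 0 of 18 were called by Cuffdiff in either comparison. An unadjusted p under 0.05 was listed for 1 in the first and 2 in the second, and the median log2 folds were 0.03 and 0.0031. The most abundant were Fkbp1a, which encodes a protein that binds type I receptors, at 152, 139 and 149, and Ski, a SMAD corepressor gene, at 32.3, 33.1 and 31.8.

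Among 18 tested genes of latency, activation and processing 2 were called higher and 0 lower at 7 weeks, against 1.67% and 0.701% of all tested genes (median log2 fold 0.02). They were Thbs1, whose product can activate latent TGF-beta, from 4.75 to 10.5, and Ltbp2, a gene of the latent TGF-beta binding protein family, from 2.20 to 4.03 (both q = 0.004995 in the authors' deposited table). With a normal p from the deposited statistic alone neither was called. From 7 to 9 weeks 2 were called lower and 1 higher, against 2.76% and 1.89% of all tested genes (median -0.10). Ltbp2 fell from 4.06 to 1.85 and Thbs1 from 10.5 to 6.15 (both q = 0.00237 in the authors' deposited table). Lrrc32, which encodes a cell surface anchor of latent TGF-beta, rose from 7.36 to 10.1 (q = 0.0342 in the authors' deposited table). The summed FPKM of the endothelial markers was also higher, 367 in 7wkKO and 509 in 9wkKO. Their part in the Lrrc32 value was not tested. The statistic alone left the call of Ltbp2 and ended those of Thbs1 and Lrrc32. The latent TGF-beta binding protein gene Ltbp4 was the most abundant of the list, at 197, 200.04 and 184.

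Of 18 tested TGF-beta response genes 4 were called higher in 7wkKO and 0 lower, against 1.67% and 0.701% of all tested genes. Their median log2 fold was 0.20, with 14 above 0 and 4 below. Ctgf, a matricellular growth factor gene, rose from 70.8 in 7wkWT to 151 in 7wkKO, a log2 fold of 1.09 with an interval from 0.56 to 1.62. Postn, which encodes the matrix protein periostin, rose from 29.6 to 45.8. Ltbp2, also counted in the latency list, and Cyr61, which went from 35.3 to 53.0, were the others. All 4 had q = 0.004995 in the authors' deposited table. Several of these genes are also known to respond to other signals, such as stretch. With a normal p from the deposited statistic alone, Ctgf was the 1 of the 4 still called, and in the isoform table no row of Postn was called (lowest q = 0.476 in the authors' deposited table).

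From 7 to 9 weeks 5 of the 18 were called lower and 1 higher, against 2.76% and 1.89% of all tested genes, and the median log2 fold was -0.12. Ctgf fell from 152 to 72.5 and Tgfbi, a TGF-beta-induced matrix protein gene, from 23.5 to 14.2 (both q = 0.00237 in the authors' deposited table). Ltbp2, Cyr61 and Postn were also called lower, and Pdgfb, a platelet-derived growth factor gene, was called higher, from 25.7 to 34.6 (q = 0.0445 in the authors' deposited table). Because both comparisons use the same 7wkKO samples, a value that is high in 7wkKO favours a rise followed by a fall. Markers of other tissue moved the same way. Of the 12 atrial markers 9 were called lower from 7 to 9 weeks, after 7 called higher before. The 4 tested valve and fibrous tissue markers had a median log2 fold of 0.62 at 7 weeks, with all 4 above 0 and 0 called, and of -2.77 later, with 3 called lower. Among them Angptl7 and Chad had implied standard errors of 1.06 and 1.97 later, against a median of 0.27 over all tested genes. Endothelial markers were higher in 9wkKO, as Pdgfb was, with a summed FPKM of 367 in 7wkKO and 509 in 9wkKO. Of these 6 markers 3 were called higher, against 1.89% of all tested genes. These marker lists were chosen with earlier results of these data known, and their part in the values above was not tested. A normal p from the deposited statistic alone left 2 of the 6 response genes called, Ctgf and Ltbp2. The isoform table ended the call of Pdgfb (q = 0.0640 in the authors' deposited table).

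BMP response genes had 0 of 11 tested members called at 7 weeks by Cuffdiff, against 2.37% of all tested genes. An unadjusted p under 0.05 was listed for 4, none of them higher, against 11.3% of all tested genes. Their median log2 fold was -0.10, with 9 of 11 below 0. The most abundant were Id3, at 126 and 97.0, and Id1, at 117 and 93.4, which encode inhibitors of helix-loop-helix factors (q of 0.183 and 0.345 in the authors' deposited table). The summed FPKM of the endothelial markers was also lower, 461 in 7wkWT and 364 in 7wkKO, with 0 of 6 called and 5 of 6 under 0.05 in unadjusted p, and its part in these values was not tested. From 7 to 9 weeks 1 of 11 was called lower and 0 higher, against 2.76% and 1.89% of all tested genes (median 0.15). It was Hamp, which encodes the iron hormone hepcidin, from 11.7 to 0.703 (q = 0.00237 in the authors' deposited table). Of the 12 atrial markers 9 were also called lower in this comparison, against 2.76% of all tested genes. That list was chosen with earlier results of these data known, and its part in the Hamp value was not tested.

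**Figure D5:**
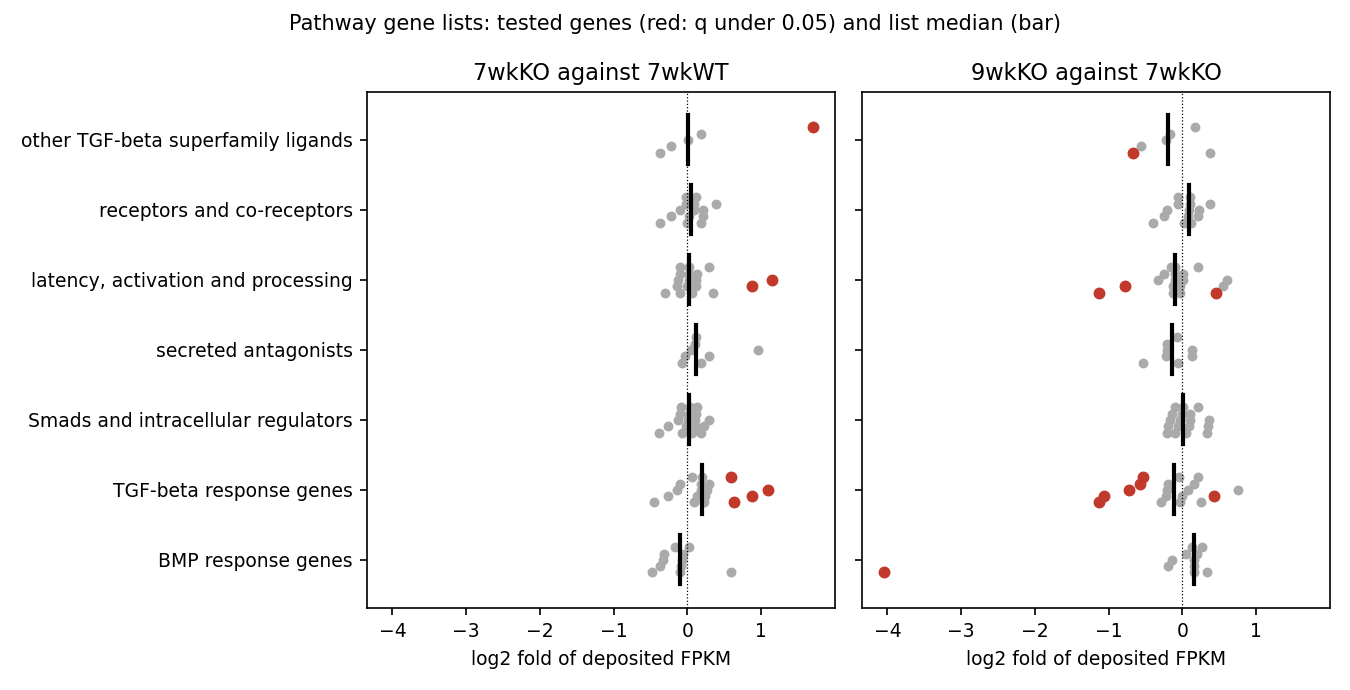
Log2 folds of the tested genes of 7 pathway lists at 7 weeks (left) and from 7 to 9 weeks (right), red where the deposited q was under 0.05, with a bar at each list median. Red points stand to the right among TGF-beta response and latency genes at 7 weeks and mostly to the left later, while receptors, antagonists and SMAD genes have none.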

How the data were processed

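Libraries were stranded and poly(A)-enriched, per the labels' protocols. The submitters' processing notes name TopHat2, Cuffdiff and the build mm10, and no versions were stated in the sources at hand. Per the file headers, the 4 deposited tables hold FPKM for each group, the test statistic (a score without set limits) and the p-value and q-value of Cuffdiff. Values of the 12 samples are not in these tables, so depth is unknown and precision comes only from the deposited test. Put on the normal scale, the deposited p exceeded the statistic by a factor of 1.74 (median over 11861 genes at 7 weeks).

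Log2 folds were recomputed from the deposited FPKM without a pseudocount, and the implied standard error is the fold divided by the statistic. The ligands, the pathway and marker lists and the tests were chosen with earlier results of these data known. The named genes were all ligands, up to 4 called genes of each list or else its 2 most abundant, and the 5 genes nearest to a called ligand. Others, among them Pdgfb, Inha, Grem1, Cer1, Ltbp4, Myh4 and, in the later comparison, Postn, were named after their values were seen. The list of TGF-beta response genes was counted without 1 gene that is not reported here. Results of the lists of fibroblast, smooth muscle, macrophage and skeletal muscle markers are given among the other observations. Calculations were tested on simulated data whose errors were set smaller than the implied standard errors. That test does not check the width of the intervals or the calls from the statistic alone. The tools were Matplotlib 3.10.9, SciPy 1.17.1, pandas 2.3.3, NumPy 2.4.6 and Python 3.11.15. Starts of loci were raised by 1.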

Additional observations from a re-analysis of the deposited data

How the results depend on the processing

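The number of ligands called at 7 weeks, 1 (Tgfb2), became 0 under a q threshold of 0.01, 0 with a normal p from the deposited statistic alone and 0 in the isoform table. There the deposited p of Tgfb2 is the same and 15470 rows were tested in place of 11987. It was 1 under a q threshold of 0.1, with the deposited p adjusted anew, with an FPKM of at least 1 in some group and with an absolute log2 fold of at least 0.5. The adjusted p of Tgfb2 ranged from 0.0449 to 1 over these settings. From 7 to 9 weeks the count of 0 was 0 under all of these settings. Pseudocounts of 0.1 and 1, centring and summed isoforms moved each ligand's log2 fold by less than its implied standard error in both comparisons, by 0.22 at most, and the sign of 1 value, that of Tgfb2 from 7 to 9 weeks, turned under centring. Of 85 tested pathway genes 6 were called at 7 weeks, against 2.37% of all tested genes. With the statistic alone 1 of these was still called. Of 86 tested later 10 were called, against 4.66% of all tested genes, and 3 of these were still called. The share of all tested genes called with the statistic alone was not counted. Leaving out single replicates was not possible, since the tables hold no value per sample. No paired analysis was possible because the tables hold 1 value per group and the labels give no replicate numbers shared between groups.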

Other observations

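Fstl3, which encodes a secreted antagonist of activins and myostatin, had an FPKM of 3.89 (7wkWT), 7.56 (7wkKO) and 6.59 (9wkKO). Its 1.94-fold difference at 7 weeks was the largest among the tested antagonists, yet the standard error implied by the deposited statistic was 10.7 on the log2 scale, against a median of 0.28 over all tested genes (q = 0.921 in the authors' deposited table). Its listed locus ran from 79697305 to 80369637 on chromosome 10. What lay behind that error was not tested. Nrros, which encodes an anchor of latent TGF-beta on myeloid cells, was at 2.45 in 7wkKO and 3.58 in 9wkKO, with a q of 0.0539 in the authors' deposited table, just outside the threshold that Lrrc32 passed. Both genes were singled out after their values were seen.

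Calls in marker lists of other cell types were counted in the authors' deposited tables. Of all tested genes 2.37% were called at 7 weeks and 4.66% later (2.76% lower). Fibroblast markers had 0 of 6 called at 7 weeks and 1 of 6, Lum, called lower later, and their summed FPKM was 686 (7wkWT), 733 (7wkKO) and 625 (9wkKO). Smooth muscle and pericyte markers had 0 of 5 called in either comparison, with sums of 358, 378 and 434, and macrophage markers 0 of 5, with sums of 137, 124 and 127. Of these lists 0 markers had an unadjusted p under 0.05 at 7 weeks, against 11.3% of all tested genes. Skeletal muscle markers had 0 of 4 tested genes called at 7 weeks and 1, Pvalb, called lower later, and Myh4 was listed at 0.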
